A study of Homo sapiens with 5 samples.

Results

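The 48 genes described here encode integrins, laminins and proteins of focal adhesions, out of 20098 protein-coding genes on chromosomes 1 to 22 and X. They were chosen by name: 12 integrin alpha subunits, 8 integrin beta subunits, 9 laminin chains, 7 collagens and other matrix proteins, the membrane proteins CD44 and CAV1, and 10 proteins of the focal adhesion plaque. The symbol of every gene was found once in the annotation, and no gene was left out. For each gene, ChIP-Seq peaks of the transcription factors Fra-1, MYC and E2F1 were counted in 3 places. The promoter windows ran from 2 kb upstream to 2.5 kb downstream of any annotated transcription start site (TSS), the gene body was what remained of the gene, and the flanks reached 50 kb beyond each end.

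The cells were untreated MDA-MB-231 LM2, a derivative of the MDA-MB-231 human breast cancer line that spreads to the lung. Chromatin was precipitated with the antibodies sc-183 against Fra-1, sc-764 against c-Myc and 05-379 against E2F1, with 1 library per factor and a single input DNA library as the background of all 3. There was therefore no replicate spread and no test between factors or groups of genes, and the intervals given below cover counting error only. The remaining transcription factor of the study was not analysed here, and no peak list was used for EZH2.

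Integrins are receptors made of an alpha and a beta chain that bind the extracellular matrix outside the cell and the actin cytoskeleton inside it. Laminins and type IV collagen form the basement membrane that integrins bind, and at focal adhesions talin, vinculin, paxillin, filamin and alpha-actinin connect the integrin tails to actin, while focal adhesion kinase and integrin-linked kinase carry signals from them. Fra-1, encoded by FOSL1, pairs with JUN proteins to form AP-1, which binds the letters TGAGTCA or TGACTCA. MYC binds the E-box CACGTG together with MAX, and E2F1 acts mainly at promoters of genes needed for growth and division.

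After MACS2 had kept 1 tag per position, the libraries held between 10758036 tags (the input) and 23853621 tags (MYC). The lists comprised 17320 peaks of Fra-1, 4867 of MYC and 36933 of E2F1. Counts of the 48 genes are therefore set beside the same counts for the other 20050 protein-coding genes, and the fold enrichment over input is only roughly comparable between libraries.

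The sequences below show 40 bases either side of the summit of the peaks with the largest fold enrichment among genes named for each factor, where the letters of the factor's own motif, given in capitals, were found in that stretch. They are from GRCh37 (hg19), plus strand. The first 4 are Fra-1 peaks with an AP-1 site and the last 2 are MYC peaks with an E-box.
ITGB1, Fra-1, chr10:33269556-33269636: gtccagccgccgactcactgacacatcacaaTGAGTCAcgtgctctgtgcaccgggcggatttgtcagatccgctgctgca
CD44, Fra-1, chr11:35188340-35188420: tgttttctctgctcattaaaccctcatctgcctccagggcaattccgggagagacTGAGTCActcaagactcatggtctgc
LAMA5, Fra-1, chr20:60934647-60934727: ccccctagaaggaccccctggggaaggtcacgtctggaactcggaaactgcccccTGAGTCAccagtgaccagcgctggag
LAMA2, Fra-1, chr6:129508323-129508403: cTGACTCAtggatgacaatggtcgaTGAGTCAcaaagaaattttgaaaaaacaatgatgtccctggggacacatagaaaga
LAMA5, MYC, chr20:60935228-60935308: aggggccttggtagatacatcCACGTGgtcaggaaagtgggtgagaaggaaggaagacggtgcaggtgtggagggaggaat
ILK, MYC, chr11:6624746-6624826: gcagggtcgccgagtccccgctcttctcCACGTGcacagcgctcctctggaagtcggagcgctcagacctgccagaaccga

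The middle of the AP-1 site was 6 bases from the summit in ITGB1 and 18 bases from it in CD44 and LAMA5, while LAMA2 had a pair of sites, 36 and 12 bases away. The ITGB1 peak had the largest fold enrichment of any Fra-1 peak in the 48 genes, 33.2. The summits of CD44 (fold enrichment 30.5), LAMA5 (27.1) and LAMA2 (21.7) followed. The E-box lay 16 bases from the LAMA5 summit (fold enrichment 10.0) and 9 bases from the ILK summit (7.72). No sequence is shown for E2F1, because none of its summits in these genes had the E2F motif (values below).

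Fra-1 peaks were found at many more of these genes than of other genes. Of the 48 genes, 24 (50%) had a Fra-1 peak in a promoter window against 13.2% of other protein-coding genes, 25 (52.1%) had one in the rest of the gene body against 17.3%, and 33 (68.8%) had one in the flanks against 44.1%. For E2F1, 39 genes (81.3%) had a promoter peak against 61.3% of other genes, 26 (54.2%) a body peak against 17.7%, and 41 (85.4%) a flank peak against 68.7%. MYC was close to the background in the promoter windows: 11 genes (22.9%) had a peak there against 17.8%, 4 (8.33%) had one in the body against 2.43%, and 18 (37.5%) in the flanks against 28.7%. Counting promoter and body together, 36 genes had a Fra-1 peak (26.1% of other genes), 13 a MYC peak (19.6%) and 43 an E2F1 peak (65.9%). Of the 143 pairs of a gene and an E2F1 promoter peak, 18 had the peak also in a promoter window of another protein-coding gene. For Fra-1 this held for 1 of 36 and for MYC for 1 of 14. Such peaks cannot be assigned to 1 gene.

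These genes were larger and had more start sites than other genes. Their median length was 82.8 kb (from 7.17 kb for ILK to 633 kb for LAMA2) against 27.2 kb for other genes, they had a median of 11 annotated start sites against 5, and their promoter windows covered a median of 21.5 kb against 9.22 kb. Other genes with windows of the same total size would have given 11.1 genes with a Fra-1 promoter peak, 10.4 with a MYC peak and 36.7 with an E2F1 peak, so that the observed counts were 2.16, 1.06 and 1.06 times these. When genes were matched by their number of start sites instead, the ratios were 2.60 (Fra-1), 0.943 (MYC) and 1.06 (E2F1), with the MYC ratio on the other side of 1. With only the canonical TSS of each gene, 11 of the 48 had a Fra-1 peak against 7.16% of other genes, 35 had an E2F1 peak against 57.2%, and 5 had a MYC peak against 15.9%. For MYC the share of these genes thus changed from above to below that of other genes with the choice of start sites, and it was also below with peaks of a −log10 q of at least 5, when 4 genes had a promoter peak against 12.7%, and with windows of 1 kb either side of any TSS, when 6 did against 17.0%. With the same number of peaks from each list, 9 of the 48 genes had a Fra-1 promoter peak against 3.39% of other genes and 13 had an E2F1 promoter peak against 25.6%, so that the E2F1 share was then near the background.

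**Figure D1:**
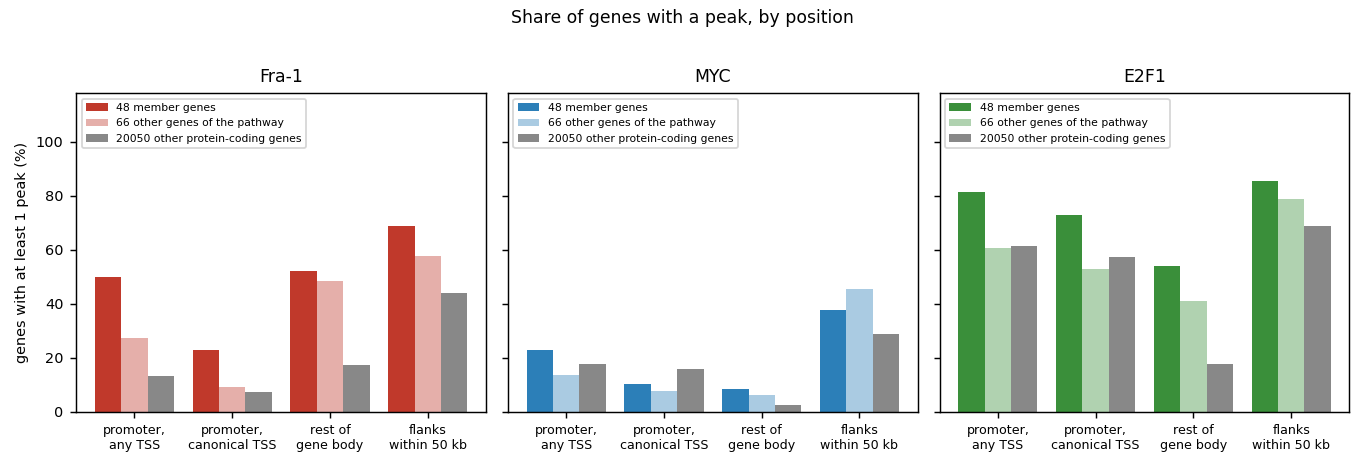
Share of genes (percent, vertical axis) with at least 1 peak of each factor in the promoter windows of any TSS, the window of the canonical TSS, the rest of the gene body and the flanks, for the 48 genes (dark bars), 66 other genes of the same pathway (light bars) and 20050 other protein-coding genes (grey bars). The Fra-1 bars of the 48 genes are above the grey bars at every position, whereas the MYC bars are above them for any TSS and below them for the canonical TSS.

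The promoters fell into a few combinations. Peaks of all 3 factors were present in promoter windows of 9 genes (ITGA3, ITGB2, LAMA3, LAMA5, CD44, FLNA, ACTN1, ACTN4 and ILK) against 4.64% of other genes. With the canonical TSS only, the count was 2 genes against 2.78%. Fra-1 and E2F1 without MYC were found at 15 genes against 7.61%, and E2F1 alone at 13 genes against 35.9%. MYC and E2F1 without Fra-1, the combination of 13.2% of other genes, was found at 2 genes, LAMB2 and PXN. No gene had Fra-1 alone (0.898% of other genes) or MYC without E2F1 (0.0449%), and 9 genes had no promoter peak against 37.8%. Among genes with an E2F1 promoter peak, 24 of 39 (61.5%) also had a Fra-1 promoter peak against 20% of other such genes, and 11 of 39 (28.2%) had a MYC promoter peak against 29%.

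Among the 12 integrin alpha subunits, which set the matrix ligand of the receptor, 4 had a Fra-1 promoter peak against 13.2% of other genes. A MYC promoter peak was present at 1 of them (17.8% of other genes) and an E2F1 promoter peak at 7 (61.3%). The E2F1 count was near the background. The E2F1 promoter peak of ITGA1 was also in a promoter window of PELO. The Fra-1 and E2F1 promoter peaks of ITGA7 were also in promoter windows of BLOC1S1. Peak numbers of single genes, here and below, are for promoter windows and body unless flanks are named. The collagen receptor ITGA2 carried 6 Fra-1 peaks (2 promoter, 4 body) and 9 E2F1 peaks. ITGA3, which with ITGB1 forms a laminin receptor, carried 4 Fra-1 peaks, 1 MYC peak and 8 E2F1 peaks within a gene of 34.5 kb. The fibronectin receptor subunit ITGA5 had 2 Fra-1 and 4 E2F1 peaks, all in promoter windows. The laminin receptor subunit ITGA6 had 2 Fra-1 peaks in its body and 8 E2F1 peaks. At the other end, ITGA4 and ITGA8 had no peak of any factor in promoter, body or flanks, as did 14.4% of other genes.

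ITGB1, the beta chain shared by most of these receptors, had 4 Fra-1 and 11 E2F1 peaks and no MYC peak. ITGB5, a partner of ITGAV, had 6 Fra-1, 1 MYC and 10 E2F1 peaks. ITGAV itself had no Fra-1 or MYC peak in promoter or body and 1 E2F1 peak in its promoter windows. The flanks of ITGAV held 3 Fra-1 peaks. ITGB3, another partner of ITGAV, had 4 Fra-1 and 5 E2F1 peaks in the gene body and none in a promoter window. In promoter and body, ITGB4, the partner of ITGA6 in hemidesmosomes, and ITGB8 had E2F1 promoter peaks only, 3 and 2 of them. The leukocyte subunit ITGB2 had 1 Fra-1 and 1 MYC promoter peak, 6.75 and 6.98 kb upstream of its canonical TSS at other start sites of the gene. ITGB7, also a leukocyte subunit, had no peak of any factor in promoter or body. Of the 8 beta subunits, 3 had a Fra-1 (13.2% of other genes), 1 a MYC (17.8%) and 5 an E2F1 promoter peak (61.3%). The E2F1 count was again near the background.

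The laminin chains differed widely. LAMA5, the alpha chain of laminins found in most adult basement membranes, had 4 Fra-1, 4 MYC and 12 E2F1 peaks. LAMB3, a chain of the laminin of epidermal anchoring, had 3 Fra-1 peaks and 7 E2F1 peaks. LAMA3, its alpha chain partner, had 4 Fra-1, 1 MYC and 3 E2F1 peaks in a gene of 267 kb. LAMB2 had no Fra-1 peak, 2 MYC peaks and 5 E2F1 peaks. LAMA1, an alpha chain known mainly from embryonic basement membranes, had no peak in promoter or body and 1 Fra-1 peak in its flanks. Of the 9 laminin chains, 5 had a Fra-1 (13.2% of other genes), 3 a MYC (17.8%) and 8 an E2F1 promoter peak (61.3%).

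None of the 7 collagens and other matrix genes had a MYC peak in promoter or body, where genes of their length would have given 2.06 peaks in total. The same genes had 20 Fra-1 peaks against 5.72 from their length and 38 E2F1 peaks against 15.4. COL4A2, a chain of type IV collagen, had 12 Fra-1 peaks, the most of the 48 genes, all in the gene body. COL4A1, which lies head to head with it, had 1. The 2 promoter E2F1 peaks on either side of their neighbouring start sites, with summits 1.15 kb upstream and 1.19 kb downstream of the COL4A2 TSS, counted for both genes. The fibronectin gene FN1 had 2 Fra-1 and 4 E2F1 peaks, all in promoter windows. THBS1, which encodes the secreted adhesion protein thrombospondin, had 1 Fra-1 peak and 10 E2F1 peaks within 18.4 kb.

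CD44, a receptor for hyaluronan, had 7 Fra-1, 1 MYC and 6 E2F1 peaks. CAV1, the main coat protein of caveolae, had 2 Fra-1 and 4 E2F1 peaks, all in promoter windows. Of the 10 plaque genes, 7 had a Fra-1 (13.2% of other genes), 5 a MYC (17.8%) and all 10 an E2F1 promoter peak (61.3%). The alpha-actinin gene ACTN4 had 11 Fra-1, 1 MYC and 15 E2F1 peaks, and its paralog ACTN1 had 2, 2 and 6. The paxillin gene PXN had 3 Fra-1, 2 MYC and 14 E2F1 peaks, and the filamin gene FLNA had 2, 2 and 5. The vinculin gene VCL had 5 Fra-1 and 6 E2F1 peaks, and the talin gene TLN1 had 1 and 4. The zyxin gene ZYX had 5 E2F1 peaks only in promoter and body, and its flanks held 2 Fra-1 peaks and 1 E2F1 peak. PTK2, which encodes focal adhesion kinase, had 2 Fra-1 and 2 E2F1 peaks in 344 kb. ILK, the shortest gene of the list, had 1 Fra-1, 1 MYC and 7 E2F1 peaks. PARVA, an ILK-binding parvin, had 2 E2F1 peaks only in promoter and body, and its flanks held 1 Fra-1 and 1 E2F1 peak.

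**Figure D2:**
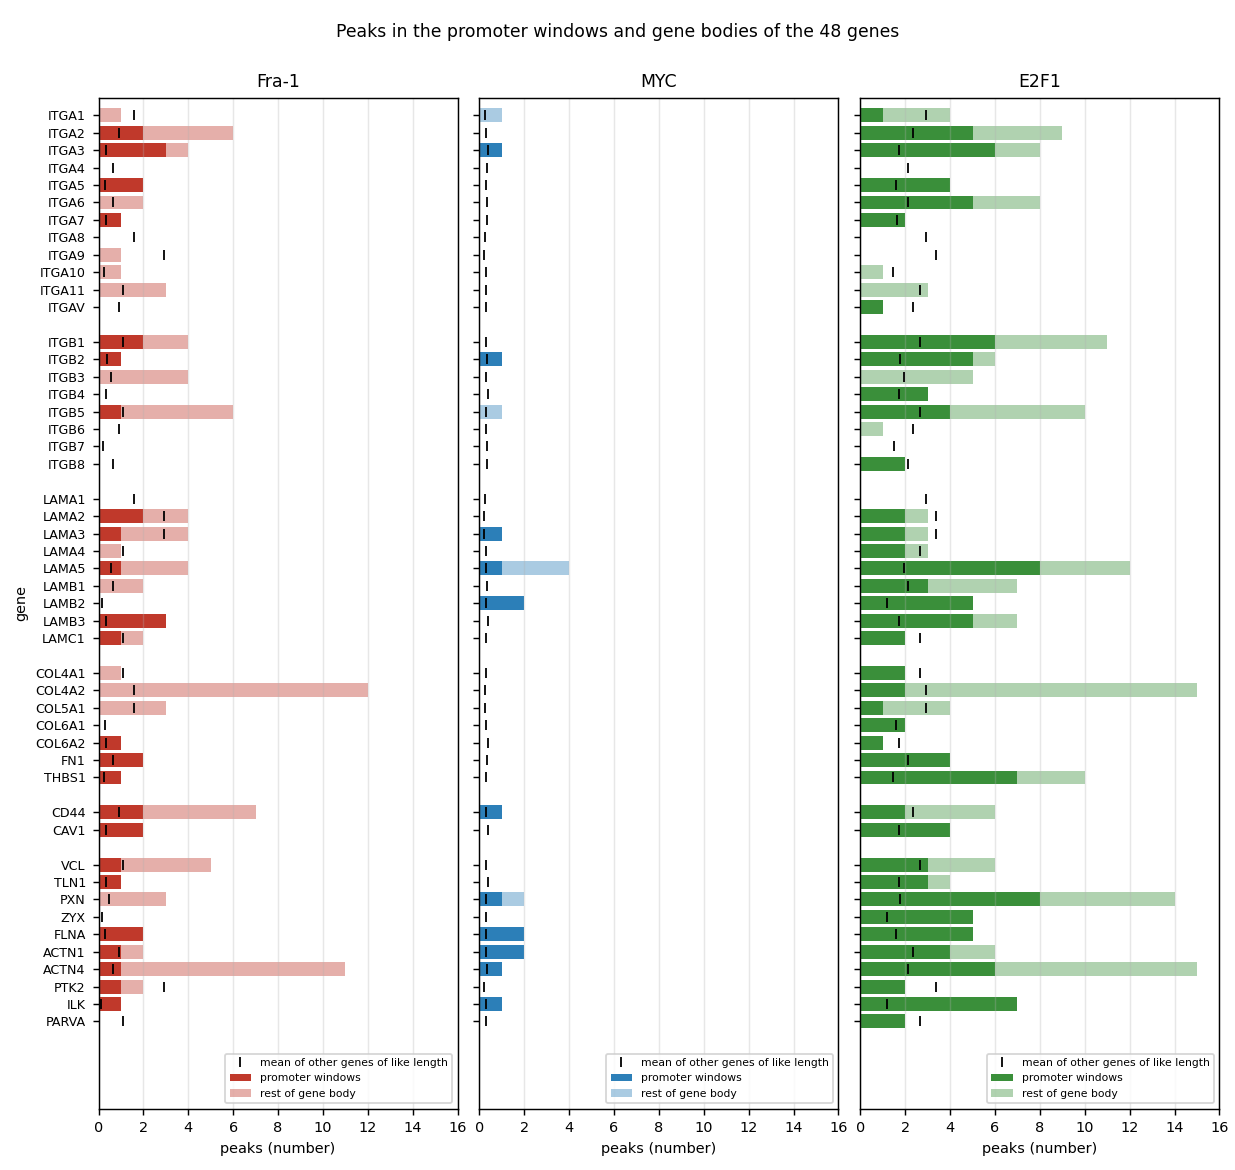
Number of Fra-1, MYC and E2F1 peaks (horizontal axis) in the promoter windows (dark bars) and the rest of the gene body (light bars) of each of the 48 genes, in the order integrin alpha, integrin beta, laminin, matrix, CD44 and CAV1, and plaque; black ticks mark the mean of other genes of like length. COL4A2 and ACTN4 have the longest Fra-1 bars (12 and 11) and, at 15 each, the longest E2F1 bars. No bar for any factor is present at 4 genes (ITGA4, ITGA8, ITGB7 and LAMA1), and 31.9% of other genes also had no such peak.

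To set the counts against gene length, other protein-coding genes were divided into 20 bins of equal number by length, and the mean count of a gene's bin served as its reference. The 48 genes had 112 Fra-1 peaks in promoter windows and bodies, where the bins gave 42.7, a ratio of 2.62 (95% Poisson interval 2.16 to 3.16). For E2F1 the 234 gene and peak pairs (232 distinct peaks) compared with 106, a ratio of 2.21 (1.94 to 2.52). For MYC the 20 peaks compared with 14.2, a ratio of 1.41 (0.859 to 2.17). The Poisson intervals treat peaks as independent, although peaks of a gene lie close together, and are therefore too narrow. The MYC ratio was 0.901 without the 3 genes with most peaks and 0.895 with peaks of a −log10 q of at least 5, whereas the Fra-1 ratio was 2.07 and the E2F1 ratio 1.92 without their own 3 genes. When peaks within 1 kb were merged, the ratios were 2.40 for Fra-1 and 1.70 for E2F1, and with equal numbers of peaks they were 2.68 and 1.61.

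Of the 48 genes, 31 had more Fra-1 peaks than the mean of their length bin (22.1% of other genes), 32 more E2F1 peaks (37.4%) and 13 more MYC peaks (19.6%). For MYC every bin mean was below 1, so that these were the 13 genes with any MYC peak in promoter or body. Above the 90th percentile of the bin were 16 genes for Fra-1 (8.72% of other genes), 24 for E2F1 (9.83%) and 6 for MYC (7.1%). The excess was in genes of short and middle length. In the 17 genes under 50 kb the ratio to the bins was 4.33 for Fra-1 and 2.79 for E2F1, and in the 20 genes of 50 to 150 kb it was 3.92 and 2.73. In the 11 genes over 150 kb it was 1.29 for Fra-1 and 1.05 for E2F1. COL4A2 alone held 12 of the 28 Fra-1 peaks and 15 of the 35 E2F1 peaks of these long genes. The Fra-1 counts of ITGA1, ITGA8, ITGA9, LAMA1, COL4A1, PTK2 and PARVA were below their bin means. Those of COL4A2, COL5A1, LAMA2 and LAMA3 were above. The MYC ratios in the same classes were 1.26, 1.81 and 0.783, on 7, 11 and 2 peaks. Across the 48 genes, Spearman's rho between length and peak number was 0.275 for Fra-1, −0.171 for E2F1 and −0.148 for MYC, against 0.418, 0.318 and 0.034 across other genes, where all points share 1 library per factor.

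**Figure D3:**
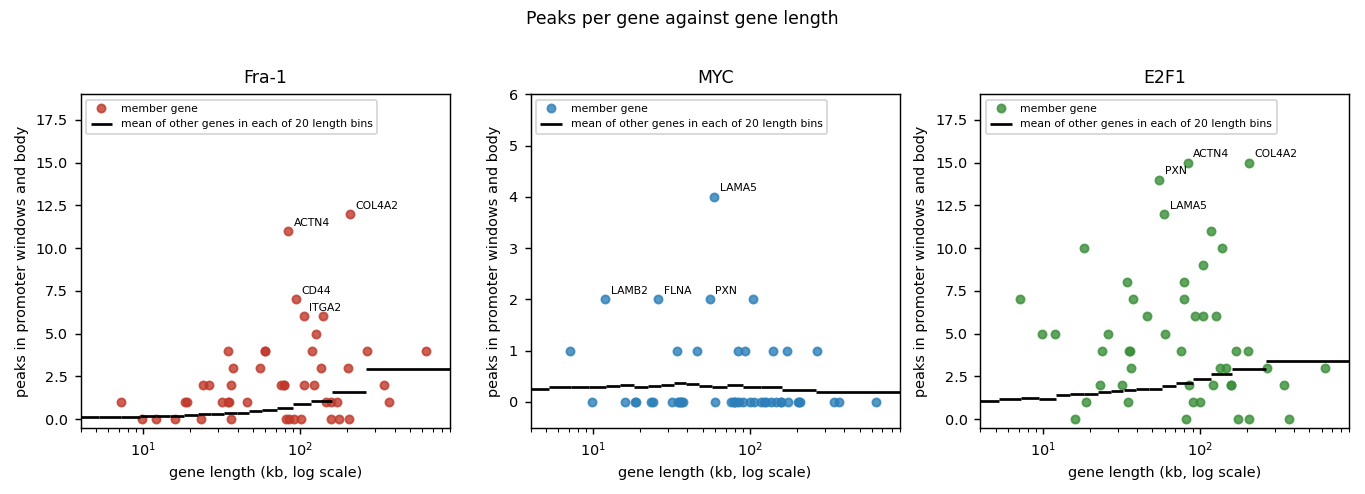
Peaks in promoter windows and body (vertical axis, number) against gene length (kb, log scale) for the 48 genes (points); black lines show the mean of other protein-coding genes in each of 20 length bins. Most Fra-1 and E2F1 points of genes under 150 kb lie above the lines (ratios of 4.33 and 3.92 for Fra-1 in the 2 shorter classes). Those of the 11 longest genes lie on both sides of them (1.29 for Fra-1), with COL4A2 far above at 12 Fra-1 peaks.

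By group, the ratio of Fra-1 peaks to the number given by length was 1.84 for integrin alpha subunits (21 peaks), 2.94 for beta subunits (15), 1.78 for laminins (20), 3.50 for the matrix genes (20), 7.26 for CD44 and CAV1 together (9), and 3.39 for plaque genes (27). Single genes held much of some sums: COL4A2 had 12 of the 20 matrix peaks, ACTN4 11 of the 27 plaque peaks and CD44 7 of the 9. For E2F1 the ratios were 1.47, 2.28, 1.92, 2.47, 2.47 and 3.21 in the same order of groups. COL4A2 had 15 of the 38 E2F1 peaks of the matrix genes, and ACTN4 and PXN had 15 and 14 of the 66 of the plaque genes. The plaque genes thus had the largest E2F1 ratio and integrin alpha subunits the smallest. MYC peaks were concentrated in laminin genes (7 peaks, ratio 2.82) and plaque genes (8 peaks, ratio 2.69), and the 4 MYC peaks of LAMA5 made up most of the former. The alpha and beta subunits had 2 MYC peaks each, with ratios of 0.568 and 0.794.

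COL4A2 spans chr13:110958159-111165556 on the plus strand. Its 12 Fra-1 peaks ranged in fold enrichment from 4.77 to 11.3 (median 6.81) and lay in introns from 12.6 to 192 kb downstream of the TSS, none of them in intron 1. An E2F1 peak overlapped 9 of the 12, and 3 summits had an AP-1 site within 50 bp. The mean of its length bin was 1.58 Fra-1 peaks. Its 15 E2F1 peaks ranged from 4.66 to 24.6.

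In ACTN4 (chr19:39138289-39222229, plus strand), 10 of the 11 Fra-1 peaks were in intron 1, and up to 6 fell within 20 kb. Their fold enrichment ranged from 5.03 to 15.0, with a median of 9.32. The peak of 15.0, at chr19:39184153-39184452, and a neighbour of 12.3 both overlapped an E2F1 peak of 2306 bp with a fold enrichment of 37.3, which was 44.5 kb downstream of the TSS and in no promoter window. An E2F1 peak overlapped 10 of the 11 Fra-1 peaks. The mean of the bin was 0.640 Fra-1 peaks and 2.12 E2F1 peaks.

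The ITGB1 gene (chr10:33176201-33294720, minus strand) includes a long upstream transcript, and none of its 4 Fra-1 peaks was downstream of the canonical TSS. The summit with a fold enrichment of 33.2 (chr10:33269460-33269853) was 22.4 kb upstream of that TSS, inside the longer transcript and outside every promoter window. The other 3 lay 47.2, 27.7 and 0.18 kb upstream, with values of 12.9, 12.3 and 7.44. Each of the 4 overlapped an E2F1 peak, with an E2F1 value of 31.5 at the distal site and of 29.6 near the canonical TSS.

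In CD44 (chr11:35160429-35253949, plus strand), 5 of the 7 Fra-1 peaks were in intron 1. The strongest, 30.5 at chr11:35188229-35188571, was 27.7 kb downstream of the TSS, and the weakest, 4.83, was at the TSS itself. The order was reversed for E2F1, whose largest value in the gene, 42.0, was at the TSS. The MYC peak (5.86) was also there, 0.17 kb downstream.

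LAMA5 (chr20:60883011-60942368, minus strand) had 4 Fra-1 summits between 2.68 and 17.2 kb from the TSS and 4 MYC summits between 7.10 and 17.3 kb from it. A MYC peak overlapped 2 of the 4 Fra-1 peaks. The strongest Fra-1 peak, 27.1 at chr20:60934373-60934865 in intron 2, was 7.68 kb from the TSS. Of the 4 MYC peaks, 3 were in the same intron, between 7.10 and 7.97 kb from the TSS, with values of 10.0, 5.69 and 9.52, and the remaining peak (5.67) was in intron 6 beside a Fra-1 peak of 9.32. The MYC peak of 10.0 at chr20:60935215-60935334, shown above with its E-box, overlapped no Fra-1 peak but overlapped an E2F1 peak, which at 3613 bp was the widest of these genes.

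LAMA2, the longest gene of the list, had Fra-1 peaks of 21.7 in intron 10, 304 kb downstream of the canonical TSS, and of 21.7 in intron 56, 608 kb downstream in the window of an alternative start site. Its 4 Fra-1 peaks compared with a bin mean of 2.94.

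The peaks of largest fold enrichment for E2F1 were at THBS1 (46.7), FLNA (44.3 and 43.7), ITGA3 (43.9) and LAMB3 (42.1). At THBS1 the peak (chr15:39872705-39875011) had its summit 0.04 kb from the TSS in the 5′ UTR and overlapped no Fra-1 or MYC peak. The other 9 E2F1 peaks of the gene had values from 5.18 to 6.89. At ITGA3 the summit of 43.9 was 0.494 kb upstream of the TSS, without Fra-1 or MYC, and the 4 Fra-1 peaks lay in introns between 3.81 and 8.76 kb downstream. At LAMB3 the summit of 42.1 was 0.08 kb from the TSS and its peak overlapped a Fra-1 peak. FLNA differed from these 3, with its E2F1 summits of 44.3 and 43.7 at 4.82 and 3.54 kb downstream of the canonical TSS, in intron 2 and coding exon 2, and a value of 6.84 for the peak just upstream of the TSS. PXN had 14 E2F1 peaks, of which 12 were in intron 1, with values from 4.31 to 16.8.

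**Figure D4:**
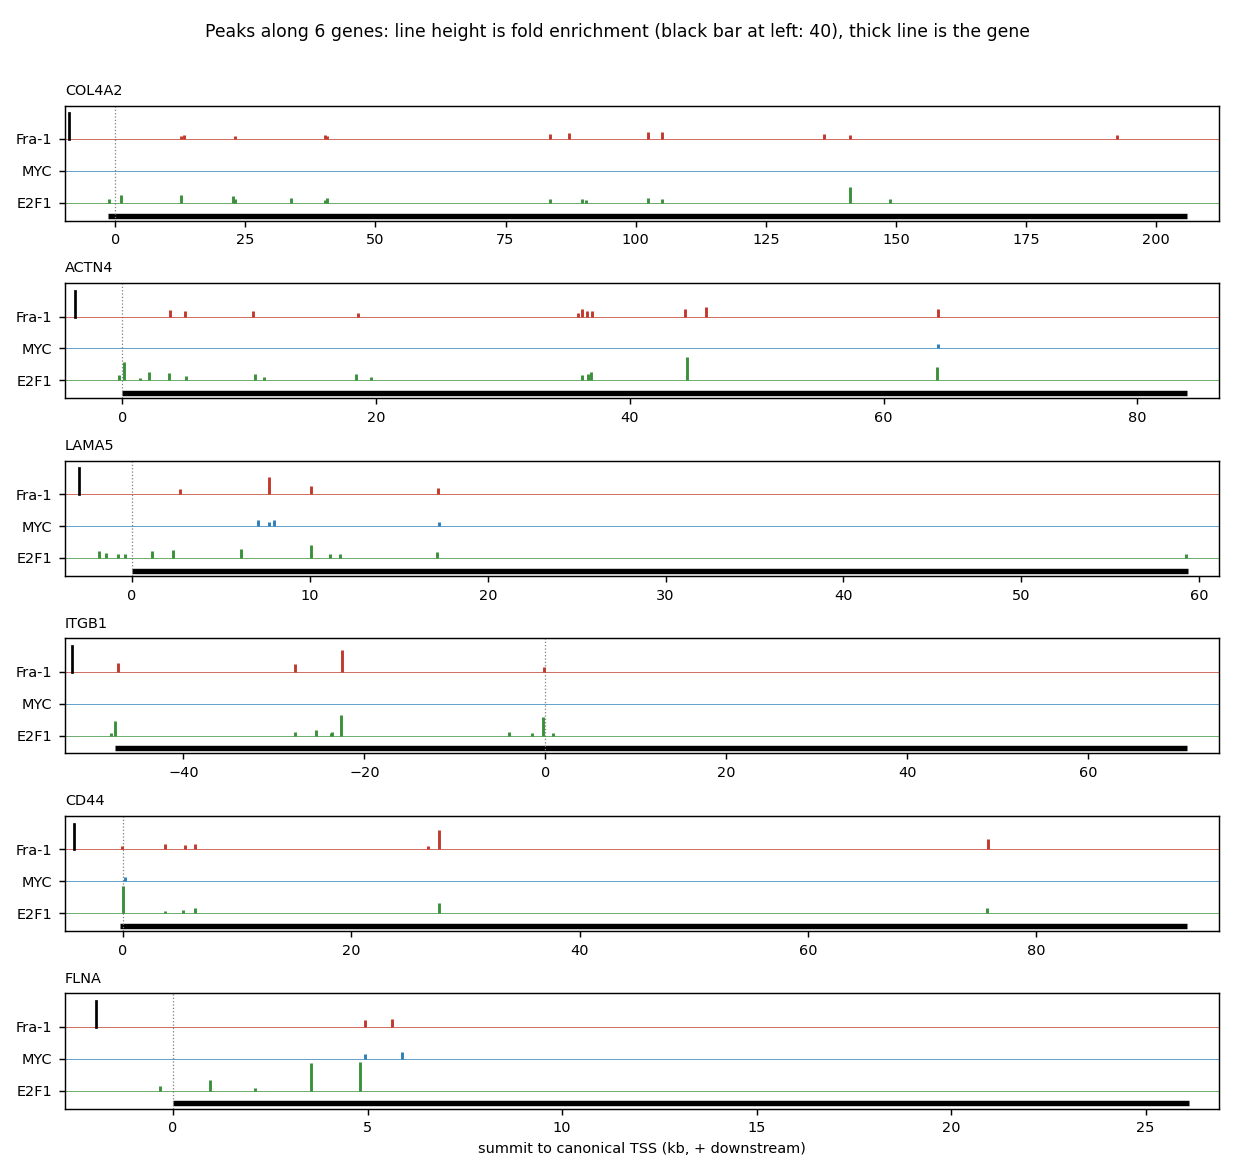
Peaks along COL4A2, ACTN4, LAMA5, ITGB1, CD44 and FLNA: each vertical line is a summit, its height is the fold enrichment (the black bar stands for 40), the horizontal axis is the distance from the canonical TSS in kb and the thick line is the gene. Fra-1 lines are spread from 12.6 to 192 kb in COL4A2, the tallest ITGB1 Fra-1 line stands 22.4 kb upstream of the canonical TSS, and the MYC lines of LAMA5 and FLNA stand beside Fra-1 lines.

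In 11 stretches of these genes, peaks of all 3 factors overlapped. Such stretches were not counted in other genes. By the smallest of the 3 fold enrichments, the first was in FLNA intron 2 at chrX:153597111-153597387, where Fra-1 had 12.4, MYC 9.96 and E2F1 44.3. The next was in LAMA5 intron 2 at chr20:60934373-60934528, with 27.1, 9.52 and 20.9. A second stretch in FLNA intron 2, chrX:153597994-153598143, had 10.1, 7.89 and 44.3 under the same E2F1 peak. ACTN4 intron 8 (chr19:39202484-39202649, 64.3 kb from the canonical TSS, in the window of another TSS) had 11.3, 6.81 and 21.6. PXN intron 1 (chr12:120669230-120669506, 34.3 kb from the TSS) had 18.1, 6.5 and 16.8. The others were in ITGB5, LAMA5, ITGA3, ACTN1 and CD44. Of the 9 genes with promoter peaks of all 3 factors, ITGB2, LAMA3 and ILK had no such stretch, since their Fra-1 and MYC promoter peaks did not overlap each other.

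A larger share of the MYC peaks of these genes than of MYC peaks elsewhere coincided with Fra-1 peaks. Of the 20 MYC peaks, 11 (55%, 95% Wilson interval 34.2 to 74.2) overlapped a Fra-1 peak against 18.5% of MYC peaks in other genes, and all 20 overlapped an E2F1 peak against 96.8%. LAMA5 held 3 of the 11 and FLNA 2. The Wilson intervals treat such neighbouring peaks as independent and are therefore too narrow. With equal numbers of peaks the share with Fra-1 was 20% against 7.14%, and that with E2F1 was 40% against 55.0%. E2F1 peaks overlapped 89 of the 112 Fra-1 peaks (79.5%, 71.1 to 85.9) against 63.8% in other genes, and MYC peaks overlapped 10 (8.93%) against 7.99%. The latter order turned with a −log10 q of at least 5 (4.76% against 5.49%) and with equal numbers of peaks (9.68% against 11.0%). Of the 232 E2F1 peaks, 83 (35.8%, 29.9 to 42.1) overlapped a Fra-1 peak against 21.7%, and 16 (6.90%) a MYC peak against 12.4%. In gene bodies 56% of the E2F1 peaks of these genes overlapped Fra-1, and in promoter windows 22.7%. The same split was not made for other genes.

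Each motif was searched on both strands within 50 bp of the summits. The AP-1 letters TGAGTCA or TGACTCA were found at 52 of 112 Fra-1 summits (46.4%, 37.5 to 55.6), compared with 52.7% of Fra-1 summits in other genes. The E-box CACGTG was found at 3 of 20 MYC summits (15%, 5.24 to 36.0) against 16.4%, in LAMA5, ILK and ITGB5. AP-1 letters were at 6 of the 20 MYC summits (30%, 14.5 to 51.9) against 4.97% in other genes. All 6 were among the 11 MYC peaks that overlapped Fra-1 (54.5%, 28.0 to 78.7, against 23.7% in other genes), and the 9 without Fra-1 had none, which allows a share of up to 33.3% (3 counts of the total, the limit used here for a count of 0 in place of the Wilson interval). The E2F motif, with the letters TTTCCCGC, TTTCGCGC, TTTGCCGC or TTTGGCGC, was at 0 of 232 E2F1 summits, which allows a share of up to 1.29%, against 1.86% in other genes. AP-1 letters were found at 27 of the 83 E2F1 summits whose peak overlapped Fra-1 (32.5%) and at 1 of those without Fra-1 (0.671%), against 34.9% and 2.23% in other genes.

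The median fold enrichment was 8.03 for Fra-1 against 8.18 in other genes, 6.07 for MYC against 6.76, and 7.61 for E2F1 against 9.58. For MYC the order turned with peaks of a −log10 q of at least 5, to 7.80 against 7.72. For E2F1 it was 9.70 in promoter windows and 6.75 in bodies. The median GC content within 50 bp of the summits was 50% (Fra-1), 63.9% (MYC) and 56.4% (E2F1), against 47.5%, 64.4% and 59.4% in other genes.

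Fra-1 and E2F1 also differed in where they lay within these genes. By the canonical transcript, 95 of the 112 Fra-1 summits were in introns, 39 of them in intron 1, 3 were in exons and 14 upstream, and 7 were within 1 kb of the TSS. The median distance from the canonical TSS was 26.3 kb. Of the 234 E2F1 summits, 148 were in introns (81 in intron 1), 30 in exons, 51 upstream and 5 downstream, 66 were within 1 kb of the TSS, and the median distance was 4.61 kb. Of the 20 MYC summits, 14 were in introns, 2 in exons and 4 upstream, and 6 were within 1 kb, with a median distance of 7.04 kb. Thus several peaks counted in promoter windows were far from the canonical TSS, such as those of LAMA2 and ACTN4.

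**Figure D5:**
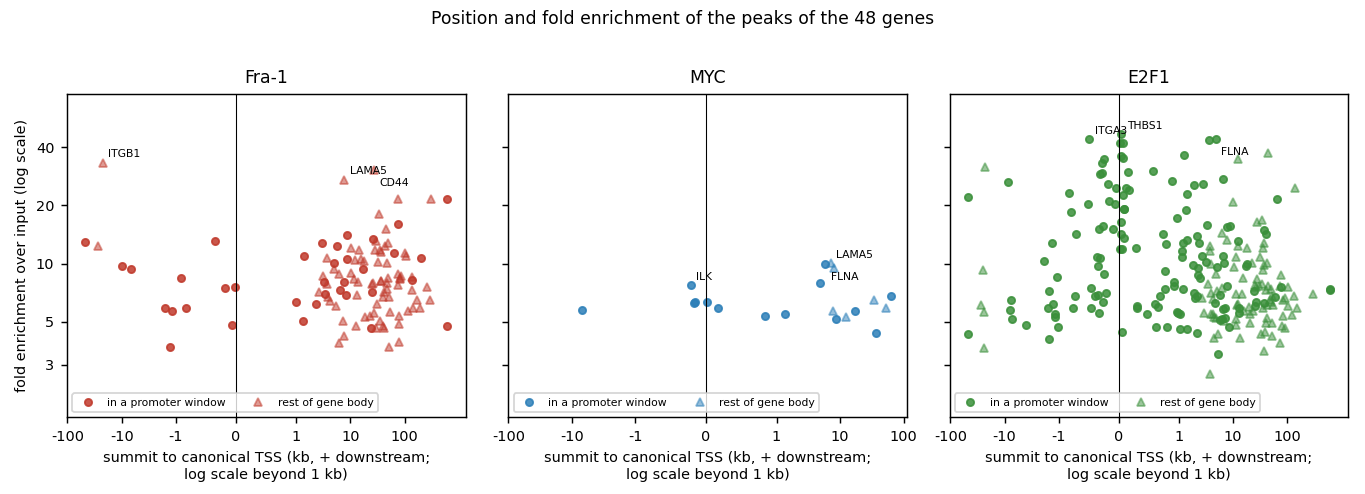
Fold enrichment (log scale) of each peak of the 48 genes against the distance of its summit from the canonical TSS (kb, log scale beyond 1 kb), for promoter windows of any TSS (circles) and the rest of the gene body (triangles). E2F1 points gather at the TSS, with 66 of 234 within 1 kb, whereas 7 of 112 Fra-1 points are there. Peaks of other genes are not shown.

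In the flanks there were 99 Fra-1 peaks, of which 20 lay in a promoter window of another gene and 56 in no gene. Only protein-coding genes and their promoter windows were considered here, and genes of other types were not checked. Of the 232 E2F1 peaks in flanks, 137 lay in another gene's promoter window and 70 in no gene, and of the 35 MYC peaks 25 and 9 did. In the flanks of the 48 genes, Fra-1 peaks thus lay mostly outside protein-coding genes and their promoter windows. E2F1 and MYC peaks there lay mostly in promoter windows of neighbours. The same split was not made for the flanks of other genes. PTK2 had 8 Fra-1 peaks in its flanks, 7 of them in no protein-coding gene, with a largest fold enrichment of 35.0, above any Fra-1 peak inside the 48 genes. ITGB6, a beta subunit with no Fra-1 peak in promoter or body, had 6 Fra-1 peaks upstream, from 5.46 to 41.7 kb from the canonical TSS, with values up to 16.1. In contrast, the 9 Fra-1 peaks beside ITGB4 were all inside other genes, 7 of them in SAP30BP. TLN1 had 20 E2F1 peaks in its flanks and ITGB7 had 11, of which 20 and 10 were in promoter windows of other genes. COL4A1 had 9 Fra-1 peaks in its flanks, of which 5 were in COL4A2 and 4 in no protein-coding gene, with values up to 21.1 for the latter.

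A wider list of 66 other genes of the pathway (receptors, matrix and plaque genes) was described in the same way. A Fra-1 promoter peak was present at 18 of them (27.3% against 13.2% of other genes). A Fra-1 body peak was present at 32 (48.5% against 17.3%) and a flank peak at 38 (57.6% against 44.1%). For E2F1 the numbers were 40 (60.6% against 61.3%), 27 (40.9% against 17.7%) and 52 (78.8% against 68.7%). For MYC they were 9 (13.6% against 17.8%), 4 (6.06% against 2.43%) and 30 (45.5% against 28.7%). Their promoter shares were below those of the 48 genes for all 3 factors. For E2F1 and MYC these promoter shares were also not above those of other genes. The MYC flank share of 45.5% was above the 37.5% of the 48 genes and the 28.7% of other genes. The promoter windows of 6 had peaks of all 3 factors (9.09% against 4.64% of other genes). Their 102 Fra-1 peaks were 1.79 times the number given by length, their 182 E2F1 peaks 1.28 times and their 18 MYC peaks 0.930 times, each below the ratio of the 48 genes.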

How the data were processed

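The material was 1 ChIP-Seq peak list per factor (Fra-1, MYC, E2F1), all from LM2 cells. The authors trimmed reads (Trimmomatic 0.27), aligned them to masked hg19 (Bowtie 0.12.5) keeping unique matches, removed duplicates, and called peaks of each library separately with MACS2 2.0.10.20120913 at a q-value of 0.01 against the same input. Versions are from the submitters' processing notes. The deposited signal is the fragment pileup at the summit, the deposited fold enrichment is its ratio to the local input background, and the deposited p- and q-values are on a −log10 scale. Depth after filtering was between 10758036 and 23853621 tags. Libraries of different depth make fold enrichment only roughly comparable between factors. The second set of interval files repeated the same peaks and q-values and was not used.

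Positions were taken from GENCODE 44 mapped to GRCh37. A peak was assigned by 1 bp of overlap to promoter windows of any TSS, then the body, then the flanks, and 32, 10 and 9 peaks of E2F1, MYC and Fra-1 outside chromosomes 1 to 22 and X were left out. Counts were compared with 20050 other genes, overall and in 20 length bins. No significance test was made. Intervals are 95% Wilson or exact Poisson intervals, which treat peaks as independent, and the limit for a count of 0 is 3 counts of the total.

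For each factor the text names the 5 genes with most peaks, the genes of the 5 peaks of largest fold enrichment, every gene with promoter peaks of all 3 factors, and every gene with no peak. Other genes were named after their values were seen. The genes, lists and rules were chosen with earlier results of these data known. Alternatives were a minimum of 5 for −log10 q or for fold enrichment, lists reduced to the same length (4857 peaks each, by −log10 q), start sites of protein-coding transcripts, windows of 1 kb, position by summit, flanks of 25 or 100 kb, 10 length bins, merging within 1 kb, summits within 250 bp and a motif window of 100 bp. The procedures were tested on simulated data. Python 3.11.15, pandas 2.3.3, scipy 1.17.1 and pysam 0.24.0 were used.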

Additional observations from a re-analysis of the deposited data

How the results depend on the processing

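Of 199 alternative values for 25 results, 166 moved by less than the interval of the result or 1.5 times. With equal numbers of peaks, genes with a promoter peak numbered 9 for Fra-1 (against 3.39% of other genes) and 13 for E2F1 (25.6%), with a body peak 16 (7.12%) and 4 (1.85%), and with a flank peak 17 (16.9%) and 19 (34.0%). The E2F1 length ratio was then 1.61, median fold enrichment 12.3 for Fra-1 (14.2 in other genes) and 33.9 for E2F1 (34.1), and the shares of shared peaks 19.4% for Fra-1 with E2F1 (5.81%), 20% for MYC with Fra-1 (7.14%), 40% for MYC with E2F1 (55.0%), 20.8% for E2F1 with Fra-1 (3.33%) and 25% for E2F1 with MYC (42.2%). With a −log10 q of at least 5, 4 genes had a MYC promoter peak (12.7%) and 2 a body peak (1.70%), the MYC median was 7.80 (7.72), and MYC was shared by 4.76% of Fra-1 peaks (5.49%) and 2.84% of E2F1 peaks (9.32%). With windows of 1 kb, 14 genes had a Fra-1 promoter peak (9.81%), 6 a MYC promoter peak (17.0%, so that the order turned) and 7 a MYC body peak (3.17%). With the canonical TSS only, an alternative chosen after seeing the data, these were 11 (7.16%), 5 (15.9%, again turned) and 8 (4.34%). Summits within 250 bp gave 69.6% for Fra-1 with E2F1 (60.2%) and 75% for MYC with E2F1 (74.9%), and merging gave an E2F1 length ratio of 1.70. The 9 genes with promoter peaks of all 3 factors became 3 with the −log10 q minimum (3.10%), 2 with equal numbers (0.853%), 5 with start sites of protein-coding transcripts (3.74%), 4 with 1 kb (3.64%) and 2 with the canonical TSS (2.78%). Where only genes with an E2F1 promoter peak were used, also chosen after seeing the data, the length ratios were 2.64 (Fra-1), 1.23 (MYC) and 1.96 (E2F1). In every case the cause was not tested.

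No paired analysis was possible because each factor had 1 library and no result comes from a test, so no replicate was left out. The 20 MYC peaks limit every MYC share, and the input, which set the background for all peaks, had the fewest tags after duplicate positions were removed (10758036 of 23219275).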
